A study of Mus musculus with 8 samples.

Results

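Synaptic adhesion molecules are the membrane and secreted proteins that hold a presynaptic terminal against its postsynaptic partner and recruit the release machinery and receptors on either side. A set of 33 genes was listed by name and mapped to the array through the RefSeq accession of each probe. A probe was found in this way for 32 of them, and the brightest probe in the sample channel stood for a gene. The expression of 31 was tested, among 15090 named genes tested in all. *Lrrtm4* had no probe matched by accession. The only probe of *Slitrk2* was well above background on 3 arrays and was not tested.

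The samples were hippocampi of adult male Muta Mouse animals, a transgenic mutation-reporter strain, at 9 weeks of age. All mice were gavaged once daily on 3 days with olive oil, and in 4 of them the oil carried benzo[a]pyrene (BaP), a polycyclic aromatic hydrocarbon, at 70 mg/kg bw per day. The other 4 mice were vehicle controls, and tissue was taken 24 hr after the last dose. Each array held the Cy5-labeled RNA of 1 mouse and a Cy3-labeled universal mouse reference RNA, without a dye swap. The labels describe the 4 samples of a group as biological replicates, and the question was which transcripts differed after this dose. For BaP mice 3 and 4 and control mice 3 and 4, the labels name opposite groups in the title and in the source. These are the 4 arrays of the second row of the slide, so the label conflict and the slide row cannot be told apart. The titles were used here. Among all tested genes limma called 3 at the adjusted threshold by title and 0 by source name. At an unadjusted p of 0.05 the shares were 9.43% by title and 4.47% by source name. Values by source name are given as a group after the counts by title.

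The median Cy5 signal was 108 to 174 per array over a background of 67 to 71, and 56.6% to 67.4% of spots were well above background. Control mouse 1 had 1483 outlier spots, against 310 to 371 on the other arrays. All 12 markers of hippocampal neurons were well above background on all 8 arrays. Of 12 markers of thalamus and habenula, 9 were tested and 8 were above background on all arrays, while *Plekhg1* was above it on none. Of 6 tested blood markers, 5 had all BaP-exposed mice below all control mice (*Hba-a1*, *Hba-a2*, *Hbb-bs*, *Hbb-bt* and *Alas2*). The mean log2 ratio of the blood markers differed by -0.90 (BaP minus control, p = 0.0286 in a 2-sided exact permutation test, the smallest possible). Benjamini-Hochberg adjustment over 12 marker lists gave 0.343, and a list alone at the smallest p could not pass it. By limma *Hbb-bs* had an adjusted p of 0.00234. On the 4 arrays with conflicting labels, *Hbb-bs* read 3.23 and 3.40 in BaP 3 and 4 and 5.13 and 5.08 in control 3 and 4. On the other 4 arrays it read 3.54 and 2.95 with BaP and 5.46 and 5.05 in control mice. This gene thus split both slide rows alike by title. *Hbb-bs* and *Cldn5* were named because their groups did not overlap by title. Such genes must split each row in that direction, which is no check of the labels. *Cldn5*, an endothelial tight junction gene, read 4.71 and 4.69 in BaP 3 and 4 against 5.39 and 5.25 in control 3 and 4. Of 11 oligodendrocyte markers 7 were higher and 4 lower, and those with an unadjusted p of 0.05 or less were *Opalin* (log2 fold change 0.57), *Cnp* (0.49) and *Mobp* (-0.29). Of 8 endothelial markers 4 were higher and 4 lower, with a median of -0.03. Those at that level were *Cldn5* (-0.57), *Tek* (0.26) and *Slco1a4* (0.36). The groups did not overlap in *Opalin* and *Cldn5*. The mean of neither list passed an exact permutation test (2-sided, p = 0.171 and 0.486). In bulk tissue, fewer cells of a type and less RNA per cell cannot be told apart.

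As background, neurexins and LAR-type receptor phosphatases sit on the presynaptic membrane. Neuroligins, LRRTMs, Slitrks and IL1RAPL1 bind them from the postsynaptic side, and cerebellins are secreted proteins that bridge neurexins to postsynaptic receptors. FLRT proteins bind latrophilins and teneurins, SynCAMs (*Cadm* genes) bind each other across the cleft, and NCAM, L1 and contactin proteins serve adhesion of axons more widely. In the hippocampus these families are known for specifying which inputs form and how strong they become.

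BaP acts on transcription through the aryl hydrocarbon receptor, whose response element has the core GCGTG. The 250 bases before the annotated start of the members were searched for it on both strands, and the windows of 3 members with low p-values are shown. Sequences were taken from RefSeq on GRCm38.p6, where 33 start sites of 23 members had an entry. *Cbln1*, which also had a low p-value, had no entry. For *Flrt2* (plus strand) the 30 bases around the match at chr12:95692026-95692055 are shown. For *Flrt3* and *Cbln4* (both minus strand) the whole windows at chr2:140671477-140671726 and chr2:172043467-172043716 are shown, 5′ to 3′ along the gene. Capitals mark the core or its reverse complement.
Flrt2: cctagacagccaCACGCccactggaactgc
Flrt3: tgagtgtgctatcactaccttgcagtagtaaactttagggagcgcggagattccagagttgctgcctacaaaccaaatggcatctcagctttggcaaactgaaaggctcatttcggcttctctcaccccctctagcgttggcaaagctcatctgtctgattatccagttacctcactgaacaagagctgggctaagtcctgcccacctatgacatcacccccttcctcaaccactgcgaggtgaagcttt
Cbln4: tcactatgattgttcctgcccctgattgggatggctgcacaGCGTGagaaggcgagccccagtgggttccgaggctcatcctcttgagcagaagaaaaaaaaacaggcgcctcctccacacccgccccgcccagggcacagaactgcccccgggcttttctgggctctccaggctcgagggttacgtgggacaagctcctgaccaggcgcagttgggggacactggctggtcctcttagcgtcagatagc
*Flrt2* held 1 core, 188 bases before the start, and *Cbln4* held 1 core, 209 bases before it. The *Flrt3* window held 0. Over the members, 11 of 33 windows held the core (33.3%), in 10 genes, against 28.2% of all 32851 windows of this length. The longer motif TNGCGTG, which contains the core, was in 1 member window (3.03%), that of *Slitrk1*, and in 4.10% of all windows. These are matches of letters and not shown sites.

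None of the 31 tested members passed an adjusted p of 0.05 with a fold change of 1.5 in limma, where p-values were adjusted by Benjamini-Hochberg for every probe tested. Over all tested genes 3 did (0.0199%). The lowest adjusted p of a member was 0.490. At an unadjusted p of 0.05 limma called 4 members (12.9%), against 9.43% of all genes. Of these *Flrt2* was higher in BaP-exposed mice (background 5.06%), and *Cbln1*, *Cbln4* and *Flrt3* were lower (background 4.37%). Without moderation the gene-wise F test gave 2 members at this level, *Flrt2* and *Flrt3* (6.45%, against 8.69% of all genes). The groups did not overlap in 2 members (6.45%, against 5.28% of all genes), *Flrt2* upward (background 2.72%) and *Flrt3* downward (background 2.56%). For these the exact permutation test gave p = 0.0286, the smallest that 4 mice against 4 allow.

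In most members the difference was small against the spread between mice. The log2 fold change lay within 0.25 of 0 in 22 of 31, and in 24 it was below the larger of the group SDs. Only *Cbln1* reached 1.5-fold, as did 1.41% of all genes. For 20 members the 95% interval of limma's fold change lay wholly inside 1.5-fold in either direction. For the other 11 a change of that size was not excluded at this number of arrays.

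**Figure D1:**
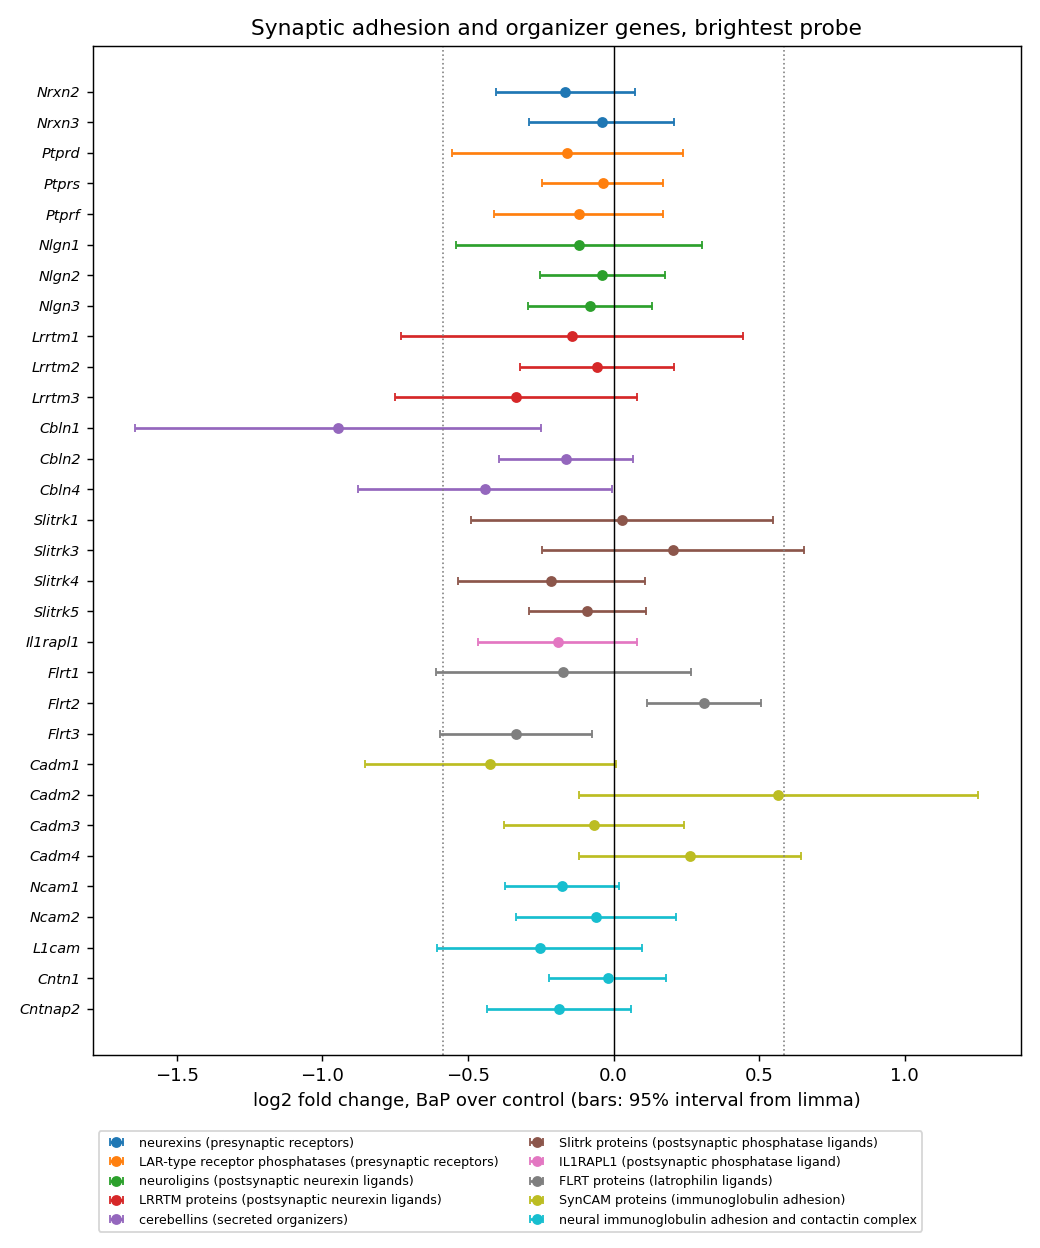
Log2 fold change of the 31 tested members (BaP over control, 4 mice each), with the brightest probe for each gene, 95% intervals from limma as bars and dotted lines at 1.5-fold. The points of 26 members lie below 0 with loess normalization. With median centring 11 do, and 24 lie below the median of all genes, which is 0.21 there. The intervals shown for *Flrt2*, *Flrt3*, *Cbln1* and *Cbln4* do not reach 0.

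The signs leaned downward, with 26 members lower (83.9%) and 5 higher, against 50.1% lower and 49.9% higher among all genes. The median log2 fold change was -0.12, and that of all genes was 0.00 to 2 decimals. Other lists leaned the same way, with 7 of 9 interneuron, 6 of 8 astrocyte and 8 of 12 hippocampal neuron markers lower. Of oligodendrocyte markers 4 of 11 were lower, and of choroid plexus markers 0 of 12. The lean of the members differed between the slide rows. Within the first row of 4 arrays on the slide, 19 members were higher and 12 lower, with a median of 0.06. Within the second row 3 were higher and 28 lower, with a median of -0.27, and these are the arrays whose labels conflict. Median centring in place of loess gave 20 higher and 11 lower, but moved the median of all genes to 0.21, and 24 members lay below that median. The Cy5 channel alone gave 13 higher and 18 lower, the authors' deposited log2 ratios 9 and 22, and grouping by source name 24 and 7. Averaged over the members, the mean deviation per mouse ran from -0.13 in control 1 to 0.27 in control 3, and from -0.19 in BaP 3 to 0.03 in BaP 1 and BaP 4.

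Grouped by source name, 21 of the 31 members had the opposite sign of log2 fold change, and none passed the adjusted threshold (lowest adjusted p = 0.918, limma). At an unadjusted p of 0.05, 8 members were higher and 0 lower (25.8%, against 4.47% of all genes). These were *Slitrk1* (0.60), *Slitrk3* (0.41), *Slitrk4* (0.35), *Lrrtm2* (0.27), *Nlgn3* (0.18), *Nlgn1* (0.40), *Cadm2* (0.79) and *Cadm3* (0.30). The groups did not overlap in the first 5 of them (16.1%, against 2.64% of all genes). *Cbln1* had -0.52 and *Cbln4* -0.18, and neither kept an unadjusted p of 0.05. *Cbln2* had 0.05, *Cadm1* 0.17, *Cadm4* -0.12, *Lrrtm3* -0.06 and *L1cam* 0.12. All values below are by title unless the source name is mentioned.

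**Figure D2:**
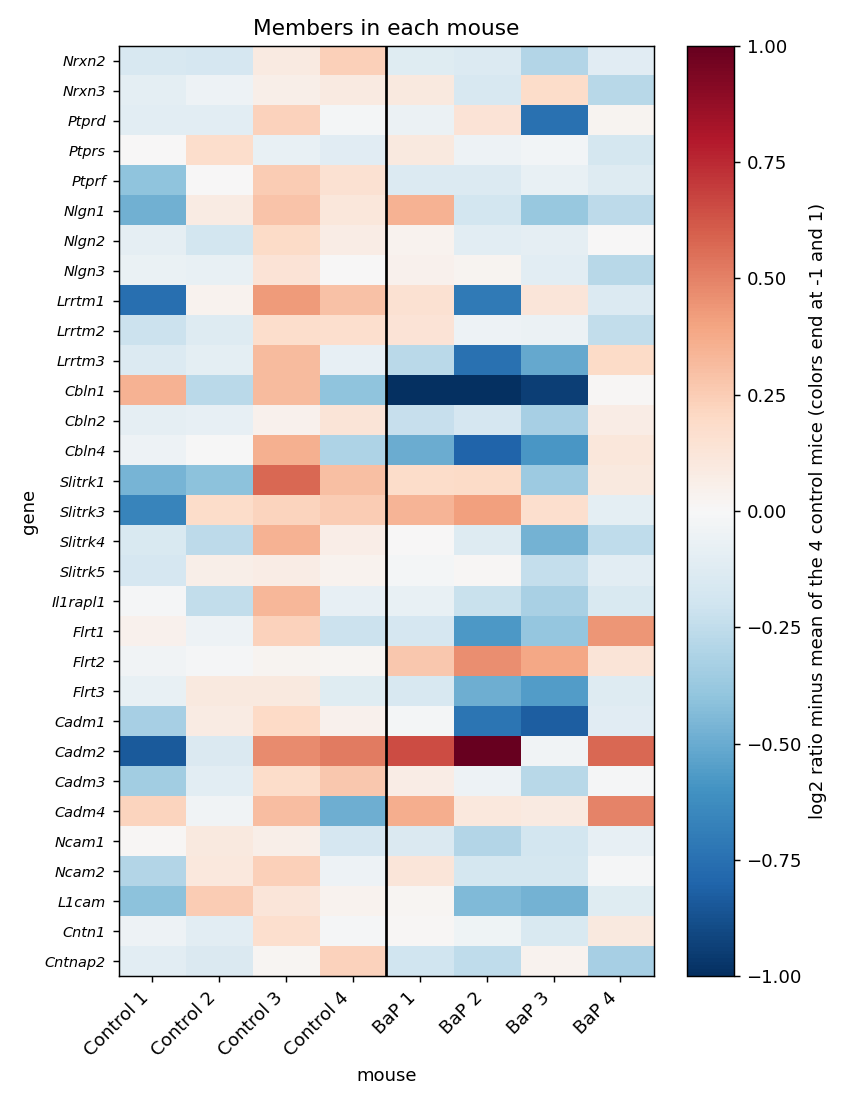
Log2 ratio of each tested member (rows) in each mouse (columns), as the difference from the mean of the 4 control mice, with colors ending at -1 and 1 and the black line between control and BaP. Control 3 is the highest of the 8 mice in 16 members, while BaP 3 is the lowest in 10 and control 1 in 9.

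Single mice stood apart over many members. Control 3 had the highest log2 ratio of the 8 mice in 16 members and the lowest in 0. BaP 3 was lowest in 10 members and control 1 in 9. In the list of hippocampal neuron markers, the deviation per mouse was -0.03, -0.06, 0.07 and 0.07 in control 1 to 4. It was 0.04, 0.06, -0.14 and -0.02 in BaP 1 to 4. The summed Cy5 signal of these 12 markers was 191763 to 206124 in control mice and 195109 to 207555 in BaP-exposed mice. For the 9 interneuron markers the deviations were -0.13, -0.10, 0.20 and 0.11 in control 1 to 4. With BaP they were 0.04, -0.11, -0.08 and 0.06. Those of the members were -0.13, 0.01, 0.27 and 0.09 in control mice and 0.03, -0.12, -0.19 and 0.03 with BaP. The part of neuron content in the members' values was not tested.

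Both members without overlap of the groups were FLRT genes. *Flrt2*, which encodes a leucine-rich repeat ligand of latrophilins and Unc5 receptors, had log2 ratios of 0.50, 0.52, 0.56 and 0.56 in control mice 1 to 4. In BaP-exposed mice 1 to 4 they were 0.802, 0.999, 0.923 and 0.662. All BaP-exposed mice were thus above all control mice, and the control mice lay close together (SD 0.030, against 0.15 with BaP). The log2 fold change was 0.31 (standard error, SE, 0.088, adjusted p = 0.490 and unadjusted p = 0.00552 by limma). A second probe read 0.28, 0.10, 0.51 and 0.24 in control mice and 0.57, 0.69, 0.54 and 0.63 with BaP. Its groups did not overlap either, and its log2 fold change was 0.32. The difference was 0.39 within the first slide row and 0.23 within the second. It was 0.29 in the Cy5 channel alone, and the Cy3 reference differed by -0.02 between groups. Grouped by source name it was 0.08 (unadjusted p = 0.560 from limma).

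*Flrt3*, a paralog that acts as a postsynaptic ligand of latrophilin, was lower with BaP in its brightest probe. Control mice 1 to 4 had log2 ratios of 3.71, 3.89, 3.89 and 3.67, and BaP-exposed mice 3.63, 3.31, 3.23 and 3.66. The groups did not overlap, but BaP 4, at 3.661, was next to the lowest control mouse, at 3.670. The log2 fold change was -0.34 (SE 0.12, adjusted p = 0.513 and unadjusted p = 0.0164 by limma). The other probes of *Flrt3* had log2 fold changes of -0.21 and 0.02, both with overlapping groups. The difference was -0.33 within the first slide row and -0.34 within the second, and 0.00 with groups by source name. With median centring it was -0.06, where the median of all genes was 0.21.

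*Flrt1*, the remaining member of the family, had a log2 fold change of -0.17 (SE 0.20, limma adjusted p = 0.815). With each mouse left out it ran from -0.38 to -0.04. A dimmer probe read -0.47, with BaP 1 to 3 at 1.60, 1.26 and 1.26 and control mice at 1.90 to 2.19. BaP 4, at 2.10, lay among the control mice.

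The cerebellins were all lower on average, and in each of them BaP 4 lay within the control range. *Cbln1*, best known as the granule cell signal that maintains parallel fiber synapses in the cerebellum, had log2 ratios of 3.12, 2.51, 3.09 and 2.37 in control mice 1 to 4. In BaP-exposed mice they were 1.17, 1.53, 1.83 and 2.79. BaP 1 to 3 were below every control mouse, while BaP 4 was above 2 of them. The log2 fold change was -0.94 (SE 0.31, adjusted p = 0.5004 and unadjusted p = 0.0128 by limma), the largest among the members, and the exact permutation test gave p = 0.0857 (2-sided). Without BaP 4 it was -1.26. It was -1.47 within the first slide row and -0.42 within the second. The Cy5 channel alone gave -0.93, and the reference channel differed by 0.02.

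*Cbln4*, a relative that also binds presynaptic partners, read 1.72, 1.76, 2.12 and 1.46 in control mice and 1.27, 0.96, 1.18 and 1.88 in BaP-exposed mice. The groups overlapped through BaP 4 alone. The log2 fold change was -0.44 (SE 0.20, adjusted p = 0.570 and unadjusted p = 0.0477 by limma). Leaving out any of control 1, 2 or 3 or BaP 1, 2 or 3 moved it to between -0.46 and -0.32, with an unadjusted p above 0.05 each time. Without control 4 it was -0.54 and without BaP 4 it was -0.63, both with an unadjusted p below 0.05. It was -0.62 within the first slide row and -0.26 within the second. *Cbln2* had a log2 fold change of -0.16 (SE 0.10, limma adjusted p = 0.653), with BaP 1 to 3 at 0.82 to 0.98, control mice at 1.06 to 1.28 and BaP 4 at 1.23.

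Marker lists of neighboring tissue also varied between the mice. For the 7 tested neocortex markers of 8, with *Foxp2* not tested, the deviation per mouse was 0.20 in BaP 4 and -0.12, -0.09 and -0.12 in BaP 1 to 3, and -0.12 to 0.27 in control mice. Their summed Cy5 signal was 8364 to 11926 with BaP and 9166 to 11288 in control mice. For the 8 meningeal fibroblast markers the deviation was 0.32 in BaP 4 and -0.51, 0.00 and 0.04 in BaP 1 to 3, and -0.52 to 0.52 in control mice. Their summed signal was 15832 to 24683 with BaP and 17637 to 26791 in control mice. All 8 meningeal markers were well above background on all arrays. For the 9 tested markers of thalamus and habenula the deviations were -0.26, 0.07, 0.16 and -0.09 in BaP 1 to 4 and -0.18 to 0.19 in control mice. Their summed signal was 5114 to 9983 with BaP and 5973 to 8886 in control mice. Of these 9 markers 3 were higher and 6 lower, with a median log2 fold change of -0.26. Those with an unadjusted p of 0.05 or less in limma were *Tac2* (-0.54), *Synpo2* (0.33) and *Ramp3* (0.43) (33.3%, against 9.43% of all genes). *Rora* read 1.06, 0.95, 1.05 and 1.69 in BaP 1 to 4 and 1.13 to 1.73 in control mice. *Tcf7l2* read -1.59, -1.52, -1.34 and -0.44, against -1.34 to -0.56. No other marker of this list was highest in BaP 4 among BaP-exposed mice. For the 12 choroid plexus markers the deviations were -1.85, 1.19, 1.68 and 0.61 in BaP 1 to 4 and -1.32 to 0.54 in control mice. Their summed signal was 25489 to 514318 with BaP and 41847 to 196448 in control mice, and their mean differed by 0.81 (exact permutation test, 2-sided, p = 0.371). The part of such tissue in the cerebellin values was not tested.

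**Figure D3:**
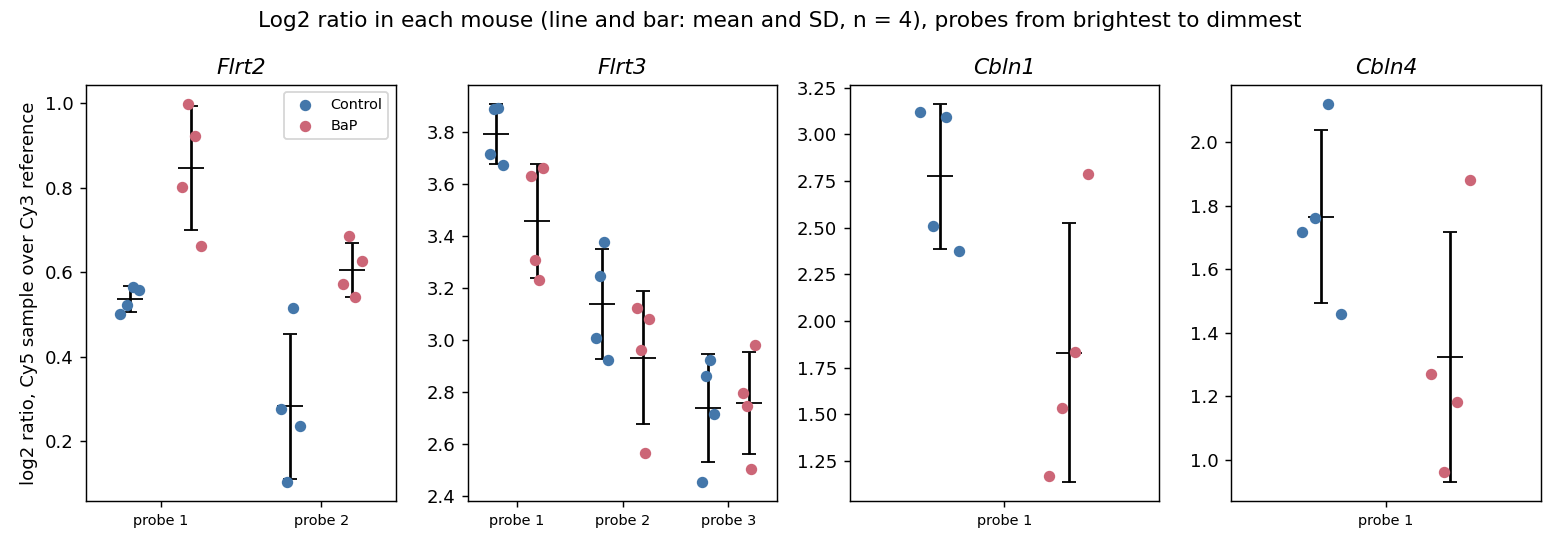
Log2 ratio of Cy5 sample over Cy3 reference in each mouse for every tested probe of *Flrt2*, *Flrt3*, *Cbln1* and *Cbln4*, with a line and bar for the mean and SD of 4 mice. Both *Flrt2* probes separate the groups, only the brightest of 3 *Flrt3* probes does, and 1 BaP-exposed mouse stands among the control mice for *Cbln1* and *Cbln4*.

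Among presynaptic receptors, *Nrxn2* had a log2 fold change of -0.17 (SE 0.11, limma adjusted p = 0.663), with control mice at 4.90 to 5.31 and BaP-exposed mice at 4.78 to 4.96. *Nrxn3* had -0.04, and its 6 probes ran from -0.09 to 0.17 with 3 on either side of 0. The receptor phosphatases *Ptprd*, *Ptprs* and *Ptprf*, which bind heparan sulfate proteoglycans and many postsynaptic partners, had -0.16, -0.04 and -0.12, with standard errors of 0.18, 0.093 and 0.13. A second *Ptprd* probe gave 0.03, and without BaP 3 the first gave 0.04. *Ptprf* was the only tested member not above the reference RNA in every mouse. All 5 presynaptic receptors had overlapping groups.

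No postsynaptic partner of neurexin passed the test. *Nlgn1*, the neuroligin of excitatory synapses, had a log2 fold change of -0.12 (SE 0.19). *Nlgn2*, that of inhibitory synapses, had -0.04 (SE 0.096) and *Nlgn3* had -0.08 (SE 0.095). The interval of *Nlgn2* ran from -0.25 to 0.18. Of the LRRTM proteins, which also bind neurexin at excitatory synapses, *Lrrtm1* and *Lrrtm2* had -0.14 and -0.06, and a second *Lrrtm2* probe gave 0.13. *Lrrtm3* had -0.33 (SE 0.19, limma adjusted p = 0.626), and -0.51 to -0.20 with each mouse left out. BaP 1 to 3 had *Lrrtm3* log2 ratios of 3.25 to 3.72, below the control mice at 3.86 to 4.31, while BaP 4 was at 4.18. A second *Lrrtm3* probe gave -0.22.

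Partners of the receptor phosphatases included 4 tested Slitrk genes, of which 2 were higher and 2 lower. *Slitrk1* had a log2 fold change of 0.03, *Slitrk3* of 0.20, *Slitrk4* of -0.21 and *Slitrk5* of -0.09. The largest, *Slitrk4*, gave -0.22 in a second probe, with an adjusted p of 0.677 from limma in the first. A second *Slitrk1* probe gave -0.19, opposite in sign to the first. *Slitrk3*, a ligand of PTPRD at inhibitory synapses, had control mouse 1 at 3.26 and the other control mice at 4.10 to 4.17, and without control 1 its fold change was -0.01. *Il1rapl1*, named for its likeness to the interleukin-1 receptor accessory protein, had -0.19 (SE 0.12, limma adjusted p = 0.657), and its second probe gave 0.04.

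The SynCAM genes lay on both sides of 0, and none passed the test. *Cadm1* had log2 ratios of 1.59 to 2.12 in control mice. BaP 2 and 3, at or under 1.19, were below every control mouse, and BaP 1 and 4, at 1.90 and 1.80, were within their range. The log2 fold change was -0.42 (SE 0.19, adjusted p = 0.577 and unadjusted p = 0.0533 by limma). *Cadm2* read 3.72, 4.41, 5.03 and 5.08 in control mice and 5.21, 5.63, 4.53 and 5.13 with BaP. Its log2 fold change of 0.57 (SE 0.31, limma adjusted p = 0.617) was 1.36 within the first slide row and -0.22 within the second, and 0.29 without control 1. Its other probes gave 0.07 and 0.13. *Cadm3* and *Cadm4* had -0.07 and 0.26, both with overlapping groups, and *Cadm4* had 0.101 without control 4.

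Of the broader adhesion genes, *Ncam1* had a log2 fold change of -0.18 (SE 0.088, adjusted p = 0.592 and unadjusted p = 0.0721 by limma). Its dimmer probes gave 0.17 and 0.00. *Ncam2*, *L1cam* and *Cntnap2* had -0.06, -0.25 and -0.19, and the dimmer *Cntnap2* probes gave 0.04 and -0.41. *Cntn1*, a glycolipid-anchored partner of contactin-associated proteins, had the smallest difference of the members, with control mice at 8.01 to 8.29, BaP-exposed mice at 7.97 to 8.21 and a 95% interval of -0.22 to 0.18.

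Several probes allowed a check within the gene for 17 members. Among 57 tested probes, 39 were lower and 18 higher with BaP. Of the 26 pairs of the brightest with another probe, 21 had log2 fold changes within 0.25 of each other, and 11 pairs in 8 genes had opposite signs. Exact permutation tests of the difference gave p = 0.0286, the smallest possible, for 2 pairs, in *Flrt1* and *Flrt3*. After Benjamini-Hochberg adjustment over the 26 pairs 0 passed (lowest adjusted p = 0.371). With only 2 pairs at the smallest p, neither could have passed, however large its difference. The largest gap, 0.50, was between probes of *Cadm2*.

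**Figure D4:**
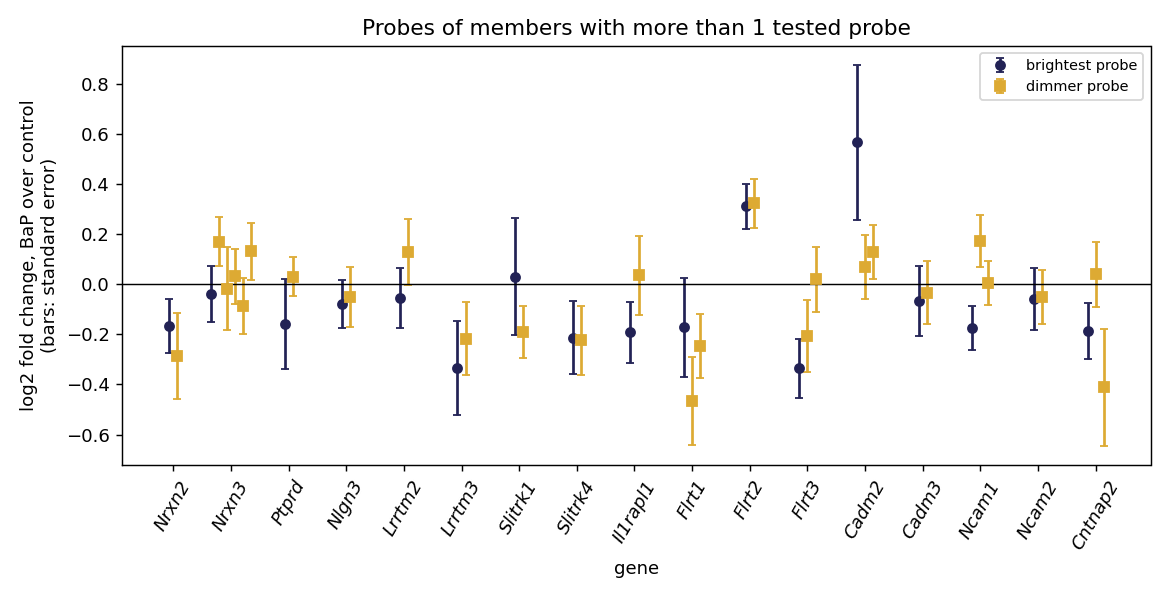
Log2 fold change with its standard error for every tested probe of the 17 members with several tested probes, the brightest as circles and the others as squares. The *Flrt2* probes lie together at 0.31 and 0.32, whereas the probes of *Flrt3*, *Ncam1* and *Nrxn3* lie on both sides of 0.

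A further list of 62 synaptic adhesion and organizer genes, among them latrophilins, teneurins, calsyntenins and further C1q-like and contactin genes, had 57 tested members. Of these 24 were higher and 33 lower, with a median log2 fold change of -0.01, and 0 passed the adjusted threshold in limma. At an unadjusted p of 0.05, 3 were higher and 2 lower (8.77%, against 9.43% of all genes). *Gpc4*, a glypican that astrocytes release and that binds receptor phosphatases, read -0.28, -0.32, -0.18 and -0.11 in control mice and 0.01, 0.32, 0.41 and 0.08 with BaP. Its log2 fold change was 0.43 (SE 0.11, limma adjusted p = 0.467). *Il1rap*, a relative of *Il1rapl1* that also binds receptor phosphatases, read 1.41, 1.42, 1.48 and 1.04 in control mice and 1.51, 1.91, 1.80 and 1.64 with BaP. Its log2 fold change was 0.38 (SE 0.12, limma adjusted p = 0.499). The others at that level were *C1ql3* (log2 fold change 0.32), *Chl1* (-0.53) and *Mdga2* (-0.28), all with overlapping groups. *Gpc4* and *Il1rap* were the only genes of the list whose groups did not overlap (3.51%, against 5.28% of all genes), and both were higher with BaP. The receptors of the FLRT proteins on this list, *Adgrl1*, *Adgrl2* and *Adgrl3*, had log2 fold changes of 0.14, 0.19 and -0.10, each with an adjusted p of 0.639 or more from limma. They, *C1ql3*, *Chl1*, *Mdga2* and the markers *Cnp*, *Mobp*, *Tek*, *Slco1a4*, *Tac2*, *Synpo2*, *Ramp3*, *Rora* and *Tcf7l2* were named after their values were seen.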

How the data were processed

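Expression was measured on 8 two-color Agilent arrays, with hippocampus RNA of 4 control and 4 BaP-exposed mice in Cy5 and a universal reference in Cy3. The authors' deposited arrays, from Agilent Feature Extraction, hold each spot's intensity and background in both channels, its outlier mark and a log10 ratio. A deposited table of log2 ratios, normalized by the authors with LOWESS, correlated with each array's scanner ratio at r = 0.908 to 0.929 (across probes).

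Spot medians were background-corrected in limma 3.58.1 (R 4.3.3) with normexp at an offset of 50. Control spots were dropped, outlier spots set to missing, ratios normalized within arrays by loess, and spots of a probe averaged. A probe was tested if its Cy5 signal was well above background on 4 or more of the 8 arrays (32600 of 55681), with lmFit and eBayes, and the Benjamini-Hochberg adjustment ran over all of them. Of 27752 probes with a RefSeq accession, 27235 (98.1%) were named by a gene table of GRCm38.p6. Exact permutation tests ran over all 70 assignments of mice. The fit was tested on simulated data with independent noise and changes larger than that of any member. Changes of the members' size were not simulated. Summaries used Python 3.11.15, pandas 2.3.3, numpy 2.4.6 and scipy 1.17.1.

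The members and lists were chosen with earlier results of these data known. The rule for named genes took all members, further genes with an unadjusted p of 0.05 or less and no overlap of the groups, marker genes without overlap, and markers not above background. Genes outside it are marked as such in the report. Some genes of the lists are not reported here. Alternatives covered background, normalization, filters, test, probe choice, slide row, replicate block, source names and each mouse left out. The number of arrays limits the precision.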

Additional observations from a re-analysis of the deposited data

Results flagged for a closer look

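In 5 of the 62 sets of 4 mice examined (31 members in each group), 1 mouse stood apart by Dixon's criterion at its 95% critical value, where chance gives about 3.1. BaP 3 was apart in 3 of them. For *Nrxn2* it read 4.78 and the other BaP-exposed mice 4.94 to 4.96 (gap over range 0.877). For *Ptprf* it read 0.04 and the others -0.03 to -0.02 (0.899). For *Slitrk1* it read 5.17 and the others 5.63 to 5.72 (0.834). Control 3 read 4.31 for *Lrrtm3*, with the other control mice at 3.86 to 3.91 (0.890). Control 1 read 3.26 for *Slitrk3*, with the others at 4.10 to 4.17 (0.918). Control 1 was also the array with the most outlier spots, at 1483. With outlier spots kept, the log2 fold change of *Slitrk3* was 0.21, against 0.20.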

How the results depend on the processing

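No member and no gene of the further list passed the adjusted threshold under any of the 26 alternatives. The median of the members, -0.12, became -0.04 with the Cy5 channel alone, -0.06 without background subtraction, -0.07 with the authors' ratios, -0.08 with the mean of a gene's probes, 0.10 with median centring, 0.063 and -0.27 within the first and second slide row, and 0.14 with groups by source name, and ran from -0.18 to -0.06 with each mouse left out. The count of members higher with BaP, 5, became 8 without background subtraction, 8 with the scanner's log ratio, 20 with median centring, 9 with the authors' ratios, 13 with the Cy5 channel alone, 19 and 3 within the slide rows and 24 by source name. It ran from 3 (without control 1) to 9 (without control 3) with each mouse left out. Median centring moved the median of all genes to 0.21, and 24 members lay below that. The count at an unadjusted p of 0.05, 4, became 2 with the scanner's ratio, 2 with the gene-wise F test, 8 within the second row and 8 by source name, and ran from 2 (without BaP 2) to 8 (without BaP 4). Over all genes the shares were 7.68% with the scanner's ratio, 8.69% with the F test, 6.79% within the second row, 4.47% by source name, 5.35% without BaP 2 and 12.2% without BaP 4. The count without overlap, 2, became 1 without background subtraction, with median centring, with the authors' ratios and with the mean of a gene's probes (5.66%, 10.2%, 5.53% and 5.25% of all genes). It was 5 by source name (2.64% of all genes) and 19 and 17 within the rows, where 2 mice against 2 gave 39.9% and 38.6% of all genes, and ran from 2 to 6 (without control 1 or BaP 4, with 10.05% and 11.7% of all genes). *Flrt3* reversed by source name, to 0.000903. The cause of these shifts was not tested. Of 806 values of single members, 716 kept their direction and side of the threshold or moved by less than the SD between mice. Members above an unadjusted p of 0.05 were judged by fold change alone. Settings that changed only the test or added a block left the median of the members at -0.12 by design. Part of the 716 was thus fixed in advance. With the replicate block, 3 members had an unadjusted p of 0.05 or less (9.68%, against 7.92% of all genes), and the numbers did not pair the mice (correlations of deviations -0.354 to 0.031, with 0 of 8 arrays closest to their own number). For dim probes the signal over background limits the precision: the median Cy5 signal was at most 174 over a background of 67 or more.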
